A study of Homo sapiens with 11 samples.

Results

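ZNF genes encode zinc finger proteins, the largest family of DNA-binding factors in the human genome. Their promoters were taken here as every gene symbol made of ZNF, a number and at most 1 further letter among the promoters with H3K4me3 values, which gave 527 promoters of 26237. The 3 H3K4me3 libraries came from BEAS-2B cells, an immortalised human bronchial epithelial line, and there was 1 library each for untreated (UT), nickel-exposed (Ni-E) and nickel-washed-out (Ni-W) cells. Ni-E cells had been grown with 100 μM NiCl2 for 6 weeks. BEAS-2B Ni-W cells were 1 population grown from a single colony of exposed cells and had then spent more than 6 months without nickel, so that a difference between Ni-W and UT cells cannot be told apart from a difference between 1 clone and its parent line. RNA of the same genes was followed in RT4, a line from a non-invasive human bladder tumour, with 2 replicates each of UT, Ni-E (6 weeks of the same dose) and Ni-W (2 weeks without nickel) cells. All 527 symbols were found in the RT4 files, 523 under the same symbol and 4 under a current one (ZNF645 as CBLL2, ZNF724P as ZNF724, ZNF788 as ZNF788P and ZNF812 as ZNF812P).

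H3K4me3, the trimethylation of lysine 4 of histone H3, marks the promoters of genes that are transcribed or poised for transcription. Most ZNF proteins bind DNA through rows of C2H2 fingers, each holding a zinc ion, and many start with a KRAB domain, which recruits the co-repressor TRIM28 and through it the H3K9 methyltransferase SETDB1. KRAB zinc finger genes arose by repeated duplication, lie in clusters that are densest on chromosome 19, and are best known for silencing retroelements and for keeping imprints.

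Of the 526 promoters that could be placed on GRCh38, 253 lay on chromosome 19. A KRAB pattern was found in 315 of the 501 members with a protein, 203 of them on chromosome 19, and 491 held at least 1 C2H2 pattern. The median number of C2H2 patterns was 12 in members with the KRAB pattern and 7 in members without it. The pattern is a match of letters, and members without it were not shown to lack a KRAB domain. Runs of at least 5 members with gaps of at most 250 kb between neighbouring starts held 304 members in 21 runs. The promoters were rich in CpG. Among 546 RefSeq promoters (GRCh38.p14, from 250 bases before to 50 after a start) of 425 members, the median ratio of observed to expected CpG was 0.785, against 0.579 over 35116 promoters of all genes, and 76.2% against 48.8% were above 0.6.

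Read on both strands, CCAAT was in 43.8% of these ZNF promoters and in 34.6% of all promoters, and the GC box GGGCGG was in 60.4% and 45%. ACTACA, the core of the site that ZNF143 binds, was in 19.2% against 8.46%, and the ETS core CCGGAAGT was in 14.8% against 4.14%. TATAAA was less frequent, at 4.21% against 11.5%. The remaining strings searched were TGACGT (10.8% and 7.98%), AAGATGG (7.33% and 5.84%) and GCGCATG (8.24% and 4.43%). No string contains another or its reverse complement. These are matches of letters and say nothing of binding.

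Promoters of 4 members on which the comparisons below turn are shown 5′ to 3′ with each CG in capitals, since CpG content differs widely among them. ZNF43 (chr19:21836133-21836432, minus strand) is a KRAB member whose mark fell more than 2-fold in Ni-W cells, ZNF804A (chr2:184598279-184598578, plus strand) and ZNF584 (chr19:58408399-58408698, plus strand) had the highest and the lowest score of Ni-W against UT cells, and ZNF484 (chr9:92877989-92878288, minus strand) had the highest score of Ni-W against Ni-E cells. The start sites behind the deposited windows are not given in the sources used here, and the RefSeq starts of ZNF43 and ZNF584 lie inside the genes as GENCODE version 44 draws them.
ZNF43: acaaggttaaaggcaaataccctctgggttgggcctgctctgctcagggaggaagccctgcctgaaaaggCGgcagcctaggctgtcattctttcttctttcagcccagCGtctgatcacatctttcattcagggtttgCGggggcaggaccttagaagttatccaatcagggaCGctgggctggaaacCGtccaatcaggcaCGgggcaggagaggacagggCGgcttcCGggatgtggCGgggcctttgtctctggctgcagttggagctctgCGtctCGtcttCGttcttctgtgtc
ZNF804A: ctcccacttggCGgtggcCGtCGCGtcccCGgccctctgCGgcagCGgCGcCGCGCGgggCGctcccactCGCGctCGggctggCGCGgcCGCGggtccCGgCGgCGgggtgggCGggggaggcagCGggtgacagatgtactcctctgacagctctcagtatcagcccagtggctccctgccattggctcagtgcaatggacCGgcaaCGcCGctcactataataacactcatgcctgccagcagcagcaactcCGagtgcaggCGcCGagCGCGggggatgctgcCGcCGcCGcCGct
ZNF584: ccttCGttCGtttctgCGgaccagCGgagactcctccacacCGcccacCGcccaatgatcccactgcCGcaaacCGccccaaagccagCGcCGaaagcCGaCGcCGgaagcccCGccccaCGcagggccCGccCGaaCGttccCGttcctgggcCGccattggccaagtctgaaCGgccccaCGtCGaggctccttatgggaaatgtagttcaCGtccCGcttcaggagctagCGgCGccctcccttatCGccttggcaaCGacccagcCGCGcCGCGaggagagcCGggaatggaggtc
ZNF484: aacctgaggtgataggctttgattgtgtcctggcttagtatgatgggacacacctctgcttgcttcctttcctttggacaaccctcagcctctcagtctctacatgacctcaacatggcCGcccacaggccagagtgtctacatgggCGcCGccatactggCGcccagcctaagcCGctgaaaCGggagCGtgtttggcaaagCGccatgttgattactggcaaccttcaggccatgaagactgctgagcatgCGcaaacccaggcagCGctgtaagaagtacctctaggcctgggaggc

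The promoter of ZNF43 held 12 CG and that of ZNF484 held 10, whereas ZNF804A held 36 and ZNF584 held 34. All but ZNF484 had a CCAAT box, all 4 had a GC box, and ZNF584 had the ZNF143 core.

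In untreated BEAS-2B cells ZNF promoters were marked more often than promoters at large. Levels are in RPKM, the reads in the window of 2 kb on each side of the start, scaled by its length and by the depth of the library. In UT cells 424 members (80.46%) had at least 1 RPKM, against 52.76% of all promoters, and the median was 4.71 RPKM against 1.57. At the upper end the order turned, with 25 members (4.744%) at 10 RPKM or above against 8.134% of all promoters. Most members therefore sat at a middle level, with quartiles at 2.06 and 6.34 RPKM. A group of 91 members lay below 0.5 RPKM. The highest were ZNF462 at 15.7 RPKM, ZNF639 at 15.4, ZNF668 at 15.2, ZNF646 at 15.0 and ZNF664 at 14.3. ZNF668 and ZNF646 start next to each other on chromosome 16 and share reads, as do 28 members in all whose windows overlap that of another member.

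The Ni-W library was weaker at promoters as a whole. Depths recovered from the deposited values were 28385725, 37493949 and 29933551 non-redundant reads for UT, Ni-E, then Ni-W, with 37.56%, 36.03% and 22.89% of them in promoter windows. The median member fell from 4.71 RPKM in UT to 4.43 in Ni-E and 2.71 in Ni-W cells, and the number at 10 RPKM or above went from 25 to 21 and 2. The median of all promoters fell as well, from 1.57 to 1.39 and 1.12. The 3 libraries had nearly the same number of marked members, 424, 420 and 415. With 1 library a condition there is no test of the condition, and the 95% Wilson intervals used below cover counting error only. Levels were divided by the median of all promoters of the library before they were compared, and a promoter was called where the scaled levels differed at least 1.5-fold, the intervals did not overlap and 1 of the 2 libraries had at least 1 RPKM. The chromatin dynamic score, which the study uses, is the difference between the square roots of the 2 scaled levels.

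**Figure D1:**
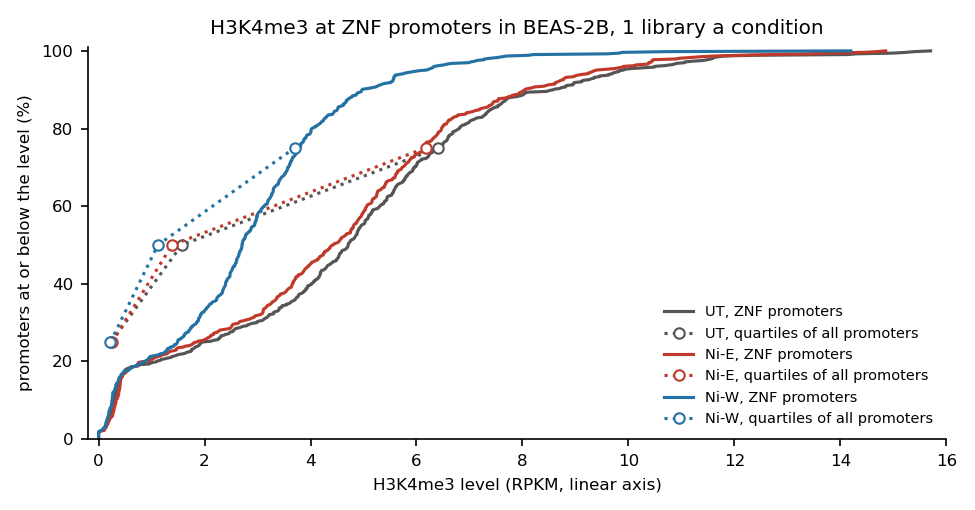
H3K4me3 level in RPKM (horizontal axis) against the percentage of promoters at or below it (vertical axis) in the 3 BEAS-2B libraries, with lines for the 527 ZNF promoters and open circles for the quartiles of all 26237 promoters. The UT and Ni-E lines run close together with medians of 4.71 and 4.43 RPKM, and the Ni-W line is steeper with a median of 2.71, whereas the lines meet below 0.5 RPKM.

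During exposure the mark at ZNF promoters barely moved. The median score of Ni-E against UT cells was 0.0583 over the members and 0.0528 over all promoters, and after subtraction of the median of promoters of like level the members were at -0.000762. Of 425 members with a level, 1 was higher and 1 was lower, against 0.847% and 0.567% of 13935 promoters. The higher one was ZNF217, an oncogene amplified in breast cancer, which went from 0.766 to 1.05 RPKM and was at 0.743 in Ni-W cells. The lower one was ZNF302, at 1.81 RPKM in UT, 0.960 in Ni-E and 1.83 in Ni-W cells. Both sat near the limit of 1 RPKM.

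Other members at the ends of the Ni-E score, leaving out members below 1 RPKM in both of these libraries, were not called. ZNF660 had the lowest score, -0.258, with 3.30, 1.97 and 1.61 RPKM in the order UT, Ni-E, Ni-W. ZNF484 had 4.71, 3.11 and 8.11 RPKM, so that its level was lowest in Ni-E cells and highest in Ni-W cells. ZNF793, ZNF253 and ZNF853 followed with scores from -0.179 to -0.177. At the other end stood ZNF215, ZNF544, ZNF350, ZNF576, ZNF142 and ZNF507, whose scores ran from 0.239 to 0.249 and differed little from each other. ZNF215 had 4.19 RPKM in UT and 4.92 in Ni-E cells. The score of 404 members (76.66%) was above 0, as was that of 72.7% of all promoters. Without any scaling the share was 28.84% of members beside 40.18% of all promoters, so the sign over the family follows the scaling.

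In Ni-W cells more members were lower than higher after scaling by the median, and the score was lowest at strong levels. The median score of members went from 0.0274 between 0.65 and 1.38 RPKM to -0.273 in the strongest of 20 bins, and that of all promoters from 0.00613 to -0.308. The median score of Ni-W against UT cells was -0.110 over the members and -0.0266 over all promoters. Of 429 members with a level, 59 (13.75%) were lower and 15 (3.497%) were higher, beside 18.4% and 4.36% of 14059 promoters called lower and higher. These shares were not tested against each other, and their order for the higher calls turned under each other scaling. Against promoters of like level the median member was 0.0239 above, and 57.5% of the members lay above the median of their level, beside 48.33% of all promoters. The split depends on the scaling. Without scaling 305 members (71.1%) were lower and 9 (2.10%) higher, beside 71.2% and 1.86% of all promoters. With totals of promoter reads 14 (3.26%) were lower and 35 (8.16%) higher, beside 3.95% and 7.60% of all. With quantile normalisation 15 (3.497%) were lower and 38 (8.86%) higher, beside 5.28% and 8.06% of all. Which direction held more calls therefore turned with the scaling, in members and in all promoters alike.

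**Figure D2:**
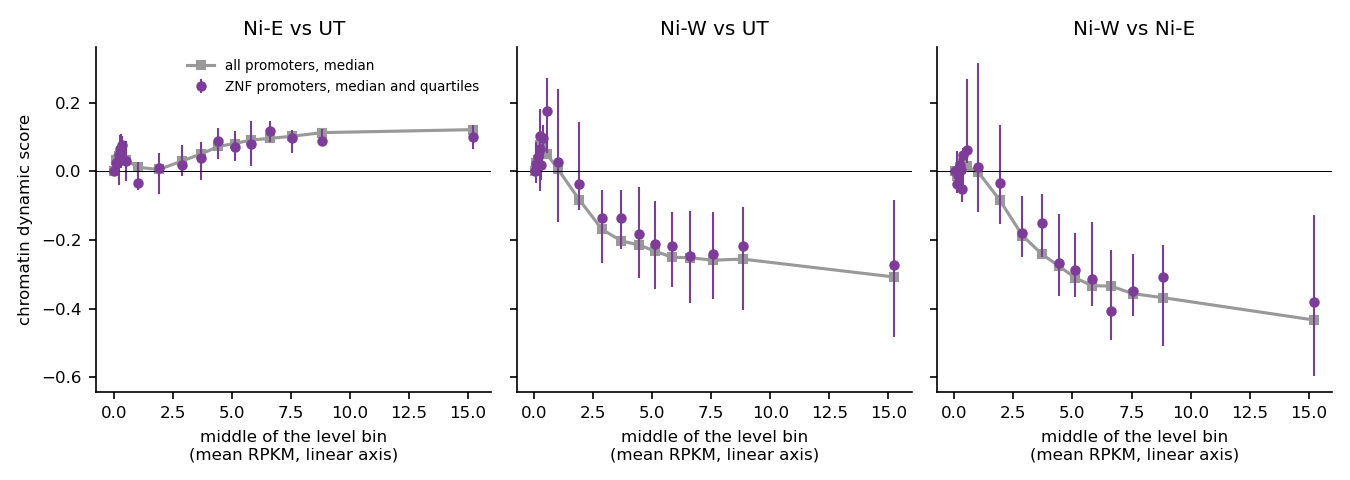
Chromatin dynamic score (vertical axis, no unit) against the middle of the level bin in RPKM (horizontal axis) for the 3 comparisons. Grey squares give the median of all promoters, and purple points with bars give the median and quartiles of ZNF promoters. Of the 20 level bins only those with at least 5 ZNF promoters are drawn. For Ni-W against UT cells the medians lie at or above 0 up to 0.65 RPKM in both sets and are below 0 from 1.38 RPKM, and the overall medians are -0.110 and -0.0266.

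The 15 members called higher in the Ni-W clone, whose intervals lie apart by the rule for a call, included several little marked in UT cells. ZNF804A, a gene of neurons known from psychiatric genetics, had 2.30, 2.47 and 5.55 RPKM in the order UT, Ni-E, Ni-W (261, 370 and 665 reads) and a score of 1.02, the highest of the family. ZNF484 followed with 0.959 and ZNF618 with 0.861, the latter from 6.93 and 6.19 to 9.83 RPKM. ZNF207, a spindle protein that holds the checkpoint protein BUB3, had 12.4, 11.6 and 14.2 RPKM, the highest level of any member in Ni-W cells. ZNF385B went from 1.11 and 1.00 to 2.60 RPKM. ZNF577 was unmarked in UT and Ni-E cells, at 0.458 and 0.513 RPKM, and reached 1.61 in Ni-W cells, which was 3.52-fold as deposited. In all 6 the deposited Ni-W level was above the UT level before any scaling. The others called higher were ZNF486, ZNF829, ZNF568, ZNF585A, ZNF813, ZNF470, ZNF608, ZNF853 and ZNF883. At a 2-fold limit 9 of them were called, ZNF385B, ZNF484, ZNF486, ZNF568, ZNF577, ZNF585A, ZNF804A, ZNF829 and ZNF883.

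Reads at unmarked promoters nearby moved with some of these. Unmarked promoters are the 9852 that had reads but stayed below 0.6 RPKM in every library, and their reads within 5 Mb of a member measure the local background. Around ZNF804A this background was higher in Ni-W than in UT cells by 1.07 on the log2 scale (95% interval 0.87 to 1.27, 15 promoters), and marked promoters there had a median log2 ratio of 0.65. ZNF385B, on the same chromosome, had a local background higher by 0.47, ZNF618 by 0.39, ZNF883 by 0.40 and ZNF484 by 0.25. For ZNF207 it was 0.04 (-0.07 to 0.15), and for ZNF577 it was -0.09 (-0.15 to -0.04). Of the 15 members called higher, 6 had a local background with its whole 95% interval above 0 and 6 with it below 0. Of the 59 called lower, none had the whole interval above 0 and 45 (76.27%) had it below 0. Over the 428 members with a level and such neighbours these shares were 11.92% and 62.85%. The part of the local background in these results was not tested.

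Of the 6 lowest scores 3 belonged to neighbours at the end of chromosome 19. ZNF584 had 10.7, 10.4 and 3.90 RPKM in the order UT, Ni-E, Ni-W and a score of -0.743. Next to it ZNF837 went from 6.63 and 6.39 to 2.07 RPKM, and ZNF446 from 4.17 and 3.65 to 1.30. The other 3 lowest lay elsewhere. ZNF594 on chromosome 17 had 9.46, 7.82 and 3.57 RPKM, ZNF133 on chromosome 20 had 11.6, 10.4 and 4.78, and ZNF598 on chromosome 16, a ubiquitin ligase that senses collided ribosomes, had 7.33, 7.55 and 2.88. In each of the 6 the UT and Ni-E levels were close and the Ni-W level stood apart from both. Called at a 2-fold limit were ZNF43, ZNF446, ZNF726, ZNF738, ZNF837, ZNF876P and ZNF880.

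ZNF43, a KRAB member with 19 C2H2 patterns, lost most of its mark. It had 1.80 RPKM in UT (204 reads), 1.5 in Ni-E (225 reads) and 0.384 in Ni-W cells (46 reads), with intervals of 1.57 to 2.06, 1.32 to 1.71 and 0.288 to 0.512, and its score was -0.485. UT and Ni-E intervals overlapped, and the Ni-W interval lay below both. ZNF880 went from 1.61 and 1.33 to 0.309 RPKM, ZNF726 from 1.47 and 1.48 to 0.242, and ZNF876P from 1.30 and 1.17 to 0.267. Together with ZNF43 these 4 members were marked at a modest level and fell below 0.6 RPKM, whereas ZNF584 and ZNF133 fell from high to middle levels.

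**Figure D3:**
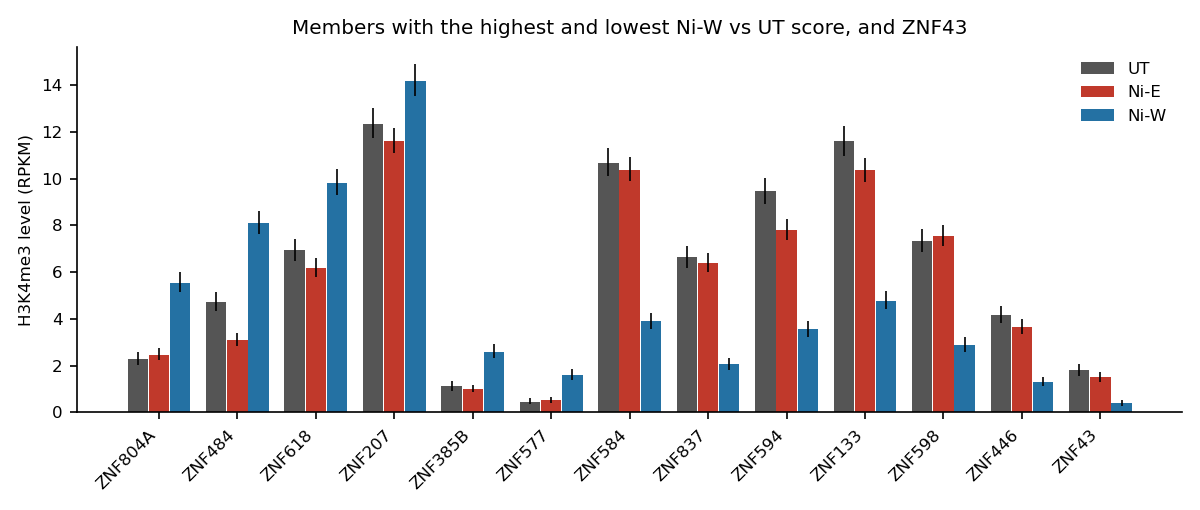
H3K4me3 level in RPKM (vertical axis) in the 3 BEAS-2B libraries for the 6 members with the highest and the 6 with the lowest score of Ni-W against UT cells and for ZNF43, each bar 1 library and each error bar a 95% Wilson interval of the reads. Among UT and Ni-E bars the widest gap in ratio is that of ZNF484 (4.71 and 3.11 RPKM), and the Ni-W bars stand above them on the left, to 5.55 RPKM for ZNF804A, and below them on the right, to 0.384 for ZNF43.

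ZNF43 belongs to the run from ZNF85 to ZNF254 on chromosome 19 (25 members, 20923222 to 24129968), which holds both marked and unmarked promoters. In UT cells 13 of the 25 (52%) had at least 1 RPKM, and 5 of the other 12 were listed at 0 in every library. Whether those 5 values are levels or gaps in the deposited windows was not tested, and the share of 52% counts them as unmarked. In Ni-W cells 4 of the 13, ZNF43, ZNF681, ZNF726 and ZNF738, were lower. ZNF91, which represses SVA elements, had 5.60, 5.33 and 3.58 RPKM and was not called. The run with the lowest median score was ZNF48 to ZNF629 on chromosome 16 (30378106 to 30787205), at -0.383, with 6 of 9 members lower. It was followed by ZNF205 to ZNF597 on chromosome 16, at -0.376 with 3 of 7 lower, and by ZNF251 to ZNF252P on chromosome 8, at -0.330 with 3 of 6 lower. Beside these, 18.4% of all promoters were lower, as were 36.23% of other promoters on chromosome 16 and 15.62% on chromosome 8. The runs were picked by these scores. The highest medians were 0.0388 for ZNF727 to ZNF117 on chromosome 7, 0.0114 for ZNF445 to ZNF501 on chromosome 3 and -0.0141 for ZNF787 to ZNF835 on chromosome 19.

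By chromosome, members and other promoters ran side by side on some and apart on others. On chromosome 16, 13 of 28 members with a level (46.43%) were lower, as were 36.23% of 541 other promoters, and on chromosome 17, 6 of 10 members were lower beside 34.6% of 815 others. On chromosome 19 the shares lay apart. Of 208 members there 18 (8.654%) were lower, beside 32.25% of 738 other promoters, and 7 (3.365%) were higher beside 0.542%. The median log2 ratio on chromosome 19 was -0.27 for members and -0.51 for the others. Strongly marked promoters had the lower scores in this comparison, and the levels of the 2 sets were not matched here.

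Classes of members by sequence are set side by side with no test. Of members with the KRAB pattern 30 of 262 were lower and 8 higher, and of those without it 25 of 155 were lower and 7 higher, with median scores of -0.0993 and -0.166. Members with 16 or more C2H2 patterns had a median score of -0.085, beside -0.178 for those with 6 to 10. By CpG ratio 142 members with the lowest ratios were marked less often in UT cells (73.24%) than 141 in the middle and 142 with the highest (90.78% and 89.44%), and the medians of the score were -0.090, -0.178 and -0.115.

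Against Ni-E cells the Ni-W clone also had more members lower than higher after scaling by the median. The median score was -0.167 over the members and -0.0746 over all promoters. Of 427 members 93 (21.78%) were lower and 18 (4.215%) higher, beside 30.5% and 4.04% of 13965 promoters. Without scaling 262 (61.36%) were lower and 14 (3.279%) higher, beside 64.17% and 2.263% of all promoters. Quantile normalisation gave 15 (3.513%) lower and 31 (7.26%) higher, beside 5.807% and 8.034% of all. Totals of promoter reads gave 17 (3.981%) and 32 (7.494%), beside 3.895% and 8.586% of all. The highest scores belonged to ZNF484 (1.20), ZNF804A (0.894) and ZNF618 (0.852), and the lowest to ZNF584 (-0.869), ZNF837 (-0.786) and ZNF598 (-0.728). This comparison shares its Ni-W library with the one above.

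Members with a known role are given next, beside the 17.25% of members and 22.77% of all promoters called in either direction in Ni-W against UT cells. Among 18 characterised members, regulators such as ZNF143, ZNF148 and ZNF281, 16 were marked in UT cells, 1 was higher (ZNF207) and 1 lower (ZNF598) in Ni-W cells. Among 13 members that bind retroelements, imprinted loci or ZNF genes, 12 were marked, and ZNF43 alone was called. ZNF445, which guards imprints, kept 6.18, 5.45 and 5.75 RPKM, and ZNF10, the source of the KRAB domain used in synthetic repressors, had 6.24, 6.47 and 5.52.

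The co-repressor machinery was described at the same promoters. TRIM28, the partner of KRAB domains, had 12.5, 12.2 and 4.68 RPKM and was lower in Ni-W cells with a score of -0.781. TRIM33 was lower too (13.0, 12.2 and 6.13 RPKM). ATF7IP, which stabilises SETDB1, was higher (5.44, 4.47 and 7.98 RPKM). SETDB1 itself had 4.13, 4.59 and 3.35 RPKM and was not called. None of the 18 promoters listed was called in Ni-E against UT cells, beside 1.414% of all promoters in either direction. TRIM28, TRIM33 and ATF7IP were the 3 called in Ni-W against UT cells, beside 22.77% of all promoters. The median score of all promoters in the strongest of 20 level bins was -0.308 in that comparison. These shares were not tested against each other. The label of the line was checked by its markers. KRT8 and KRT18 were marked (7.33 and 7.26 RPKM in UT cells), EPCAM was at 2.21 and CDH1 at 1.02. KRT19, also listed for the line, was below 1 RPKM (0.432, 0.44 and 0.735), and the basal markers KRT5, KRT14 and TP63 were below 0.5. PTPRC of leukocytes was listed at 0 in every library, and whether this is a level or a gap in the deposited windows was not tested. CD3E, PECAM1, VWF and ALB of other cell types had reads and were below 0.5 RPKM. COL1A1, a collagen gene of fibroblasts, was marked as well (8.74, 7.96 and 3.53 RPKM), whereas its partner COL1A2 was below 1 RPKM (0.476, 0.353 and 0.593), and their part in the results was not tested.

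In RT4 cells most ZNF genes were expressed at a modest level. Expression is given in TPM, an abundance of transcripts that is scaled by length and by the sum over all genes. Over the 6 samples 443 members (84.06%) had a mean of at least 1 TPM, beside 46.5% of all 28252 genes, and 172 (32.64%) had at least 10 TPM, beside 29.6%. Members took between 1.158% and 1.284% of the counts of a library. ZNF207 was the highest with 235, 180, 205, 182, 236 and 173 TPM in UT 1, UT 2, Ni-E 1, Ni-E 2, Ni-W 1 and Ni-W 2, followed by ZNF219, ZNF385A, ZNF593 and ZNF664 with means from 102 to 175. Replicates differed by number. The libraries of replicate 1 held 17075823 to 18280562 counts and those of replicate 2 held 25721268 to 27736460, and the median member had 6.18 to 7.78 TPM in the former and 5.18 to 5.50 in the latter. The differences between replicates were shared by the 3 groups, so that results are given without and with the replicate number as a block in edgeR. In bulk RNA fewer expressing cells and less RNA per cell cannot be told apart. Of 12 urothelial markers GATA3, PPARG, KRT7, KRT19 and TP63 were not called in Ni-E cells, and 7 were lower with the block, namely UPK1A, UPK1B, UPK2, UPK3A, FOXA1, KRT13 and KRT20. UPK1A, KRT13 and KRT20 were also lower without it. UPK1A had 70.6 and 92.5 TPM in UT and 16.1 and 18.5 in Ni-E cells, and KRT20 had 11.1 and 11.3 in UT and 0.25 and 0.11 in Ni-E cells. The summed level of the list, mostly KRT7 and KRT19, was 10376 and 11205 TPM in UT, 11182 and 11295 in Ni-E and 11000 and 13182 in Ni-W cells. In Ni-W against Ni-E cells 6 of the 12 were higher with the block. The part of this shift in the ZNF results was not tested. Of 7 markers of other cell types CD3E, COL1A2 and ALB were at 0, PTPRC was at or below 0.04 TPM, and the summed level was 1.41 to 2.79 TPM over the 6 samples.

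With the replicate block more ZNF genes were lower than higher in Ni-E RT4 cells, and without it edgeR made few calls in either direction. Of 473 members tested among 14502 genes, edgeR without the block called 2 higher and 3 lower in Ni-E than in UT cells, beside 1.45% and 0.710% of all genes, and the fit of these 2 groups alone called 3 higher and 2 lower. With the block 13 (2.748%) were higher and 34 (7.188%) lower, beside 7.64% and 5.00% of all genes. These shares were not tested against each other, and without the block the share lower was below that of all genes. The median log2 fold change with the block was -0.05 with 57.51% of members below 0, beside 50.66% of all genes. With the block the median log2 fold change of members was -0.068 without UT replicate 1, beside -0.008 over all genes. It was -0.037 beside 0.008 without UT replicate 2, and -0.037 beside -0.003 without Ni-E replicate 1. Without Ni-E replicate 2 it was -0.106 beside -0.004. DESeq2 with the block called 13 of 498 members higher (2.61%) and 21 lower (4.22%), beside 890 and 541 of 19464 genes. In the fit without the block, leaving out UT replicate 1 gave members a median log2 fold change of -0.071, beside 0.006 over all genes. Leaving out UT replicate 2 gave -0.063 beside 0.014. The medians were -0.061 beside -0.026 without Ni-E replicate 1, and -0.092 beside -0.013 without Ni-E replicate 2.

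ZNF114 and ZNF670 were higher under both fits. ZNF114, a KRAB member on chromosome 19, had 11.4 and 12 TPM in UT, 33.2 and 32.2 in Ni-E and 26.8 and 23.6 in Ni-W cells. It rose by 1.46 ± 0.21 (log2 fold change ± SE, adjusted p = 0.0357 by edgeR, 2.93e-05 with the block), and the 3 groups did not overlap. ZNF670, a KRAB member on chromosome 1, had 3.71 and 2.62 TPM in UT, 8.85 and 9.27 in Ni-E and 8.97 and 5.43 in Ni-W cells, and rose by 1.53 ± 0.23 (edgeR adjusted p = 0.0408). Its estimated counts were fractional in 5 of 6 samples, so reads were shared with another gene.

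Others rose with the block alone. ZNF462, a nuclear protein of neural development and the most strongly marked member in BEAS-2B cells, was nearly silent in UT RT4 cells (0.31 and 0.26 TPM) and had 1.39 and 0.96 TPM in Ni-E and 1.64 and 0.72 in Ni-W cells. It rose by 2.11 ± 0.25 on the log2 scale with the block (edgeR adjusted p = 0.00026) and 2.12 without it (adjusted p = 0.0753). ZNF423, a partner of EBF and SMAD factors, had 0.53 and 0.43 TPM in UT and 1.22 and 0.89 in Ni-E cells. ZNF395, first described as binding papillomavirus DNA, had 34.3 and 18.6 TPM in UT and 63.1 and 39.0 in Ni-E cells, so that each replicate was higher than its UT partner while the replicates lay far apart. ZNF483, ZNF654 and ZNF503 complete the 8 largest rises, of 0.96 to 2.11. ZNF331, an imprinted gene, rose by 0.82 ± 0.10 from 70.5 and 65.4 to 121 and 118 TPM.

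Among members that fell, 3 passed without the block. ZNF812 (ZNF812P, a pseudogene in current annotation) had 7.51 and 7.54 TPM in UT, 2.02 and 1.59 in Ni-E and 5.64 and 3.30 in Ni-W cells, a change of -2.10 ± 0.26 (edgeR adjusted p = 0.0268). ZNF532 had 2.58 and 1.34 TPM in UT, 0.44 and 0.34 in Ni-E and 1.08 and 0.75 in Ni-W cells, a change of -2.30 ± 0.37 (edgeR adjusted p = 0.0462). ZNF826P, a pseudogene, had 4.69 and 2.83 TPM in UT cells and 0 and 0.13 in Ni-E cells, which rests on 21 and 21 counts against 0 and 1. In all 3 the Ni-W samples lay between the other groups. ZNF532 lost its call without either Ni-W library or at a minimum of 10 counts in every sample (adjusted p = 0.0537), and ZNF826P lost it without either Ni-W library.

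With the block the largest falls included low genes. ZNF382, a KRAB repressor, had 0.16 and 0.14 TPM in UT and 0.01 in both Ni-E samples, and ZNF354C, ZNF844 and ZNF257 were also below 1 TPM throughout. ZNF506 went from 1.78 and 1.34 to 0.32 and 0.37 TPM, a change of -2.11 ± 0.40. Among better expressed members ZNF486 went from 5.49 and 2.32 to 1.12 and 0.72 TPM and ZNF883 from 9.70 and 10.4 to 2.49 and 3.21. ZNF93, which silences a class of L1 elements, had 10.6 and 12.2 TPM in UT, 5.88 and 5.81 in Ni-E and 7.32 and 8.57 in Ni-W cells. ZNF43 had 5.27 and 6.34 TPM in UT, 2.96 and 4.38 in Ni-E and 4.97 and 4.28 in Ni-W cells, a change of -0.68 ± 0.17 (edgeR adjusted p = 0.0185 with the block and 0.495 without it).

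**Figure D4:**
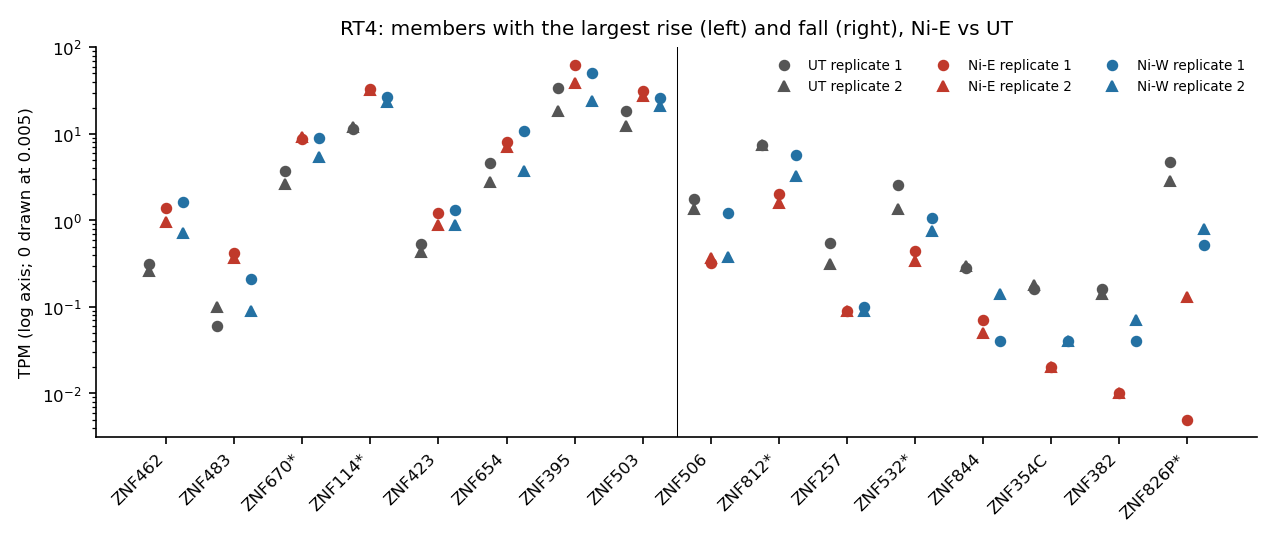
TPM on a log axis (vertical) in each RT4 sample for 16 of the members called in Ni-E against UT cells with the replicate block, 8 that rose most on the left and 8 that fell most on the right, circles for replicate 1, triangles for replicate 2, and asterisks for the 5 also called without the block. Ni-E points lie above both UT points on the left, as for ZNF462 (0.31 and 0.26 against 1.39 and 0.96 TPM), and below them on the right, as for ZNF812 (7.51 and 7.54 against 2.02 and 1.59 TPM).

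The members that fell with the block were gathered on chromosome 19. Without it 2 of 238 members tested there were lower (0.840%), beside 0.710% of all genes. With the block 25 of the 34 lay there (10.5% of the 238), beside 4.947% of 748 other genes of that chromosome. On other chromosomes 9 of 234 members were lower. The median log2 fold change on chromosome 19 was -0.10 for members and -0.09 for the other genes. In the run from ZNF101 to ZNF626 (11 members, 19668796 to 20661596) 7 members were lower, ZNF506, ZNF93, ZNF90, ZNF486, ZNF826P, ZNF737 and ZNF626, and the median log2 fold change was -0.98. The summed TPM of this run was 60.8 and 53.1 in UT, 33.9 and 34.3 in Ni-E and 48.4 and 37.4 in Ni-W cells, so that the Ni-E samples lay below the rest. The neighbouring run from ZNF85 to ZNF254 had 4 of 19 lower (ZNF85, ZNF430, ZNF43 and ZNF257) and a median of -0.39, with 18 of 19 below 0. Members called higher on chromosome 19 were ZNF114 and, in the run from ZNF175 to ZNF331, ZNF160, ZNF175 and ZNF331. The runs were singled out after their values were seen. Of members with the KRAB pattern 25 of 291 (8.59%) were lower and 6 higher. Of those without it 4 of 166 (2.41%) were lower and 7 higher, beside 5.00% and 7.64% of all genes. Among members with the KRAB pattern 20 of 193 on chromosome 19 were lower (10.36%, median log2 fold change -0.12). On other chromosomes 5 of 98 were lower (5.10%, median 0.01). The parts of the pattern and of the chromosome were not tested.

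**Figure D5:**
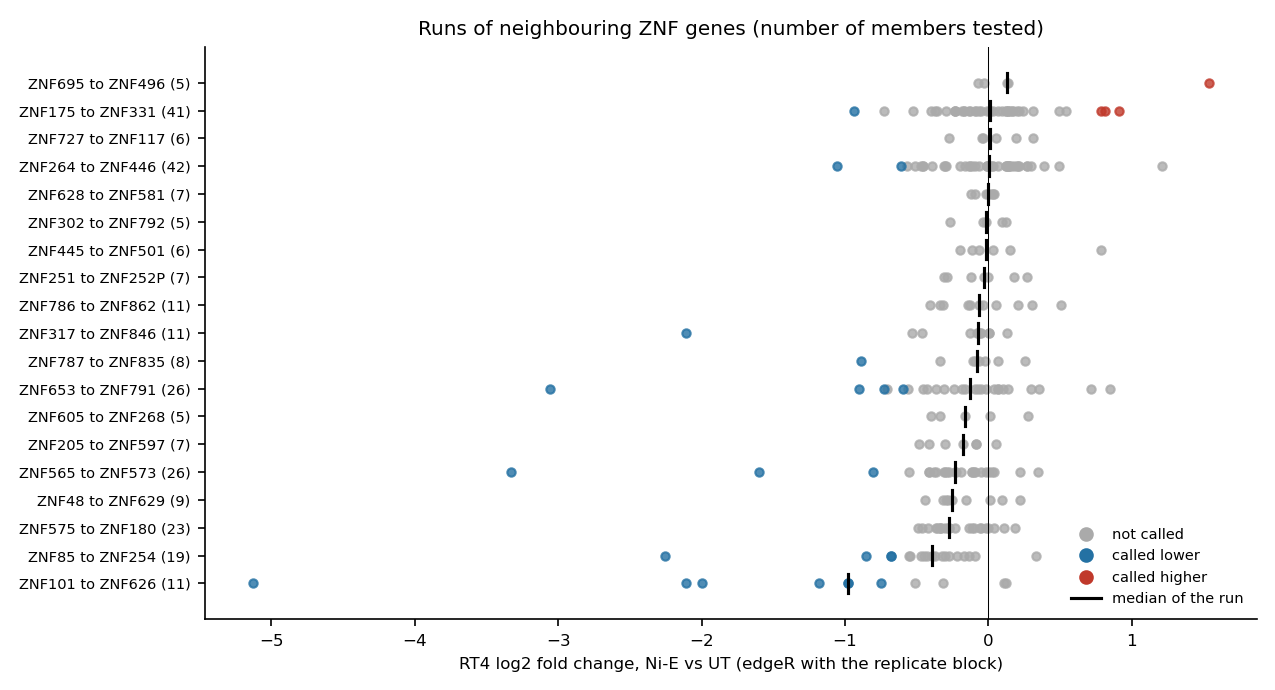
Log2 fold change of Ni-E against UT RT4 cells with the replicate block (horizontal axis) for each member of the runs with at least 5 members tested (vertical axis, number tested in brackets), grey where not called, blue where lower, red where higher, with a black bar at the median. The run from ZNF101 to ZNF626 has 7 of 11 members called lower and a median of -0.98, the run from ZNF85 to ZNF254 a median of -0.39, and most other medians lie near 0.

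After 2 weeks without nickel no member passed in edgeR without the block. Of the same 473 members, edgeR called 0 higher and 0 lower in Ni-W than in UT cells, beside 0.503% and 0.0965% of all genes. An unadjusted edgeR p below 0.05 was found for 29 of these members and for 1323 of all 14502 genes. DESeq2 without the block called 4 of 498 members higher and 0 lower, beside 342 and 100 of 19464 genes. With the block 11 were higher and 12 lower, beside 5.79% and 2.78% of all genes. The rises were ZNF462, ZNF175, ZNF423, ZNF670, ZNF114, ZNF79, ZNF654, ZNF619, ZNF322, ZNF564 and ZNF702P, from 0.70 to 1.89 on the log2 scale. The falls were ZNF826P, ZNF257, ZNF532, ZNF486, ZNF737, ZNF595, ZNF626, ZNF750, ZNF300, ZNF812, ZNF497 and ZNF692, from -2.35 to -0.64. ZNF175 had 17.0 and 13.6 TPM in UT, 30.2 and 21.9 in Ni-E and 58.0 and 29.8 in Ni-W cells, so that both Ni-W samples lay above both UT samples. ZNF750, a factor of epithelial differentiation, had 11.3 and 6.23 TPM in UT, 16.02 and 9.63 in Ni-E and 6.46 and 3.43 in Ni-W cells. The counts moved with single libraries, as did the median log2 fold change of members with the block. It was -0.042 without UT replicate 1 (-0.010 over all genes) and 0.003 without UT replicate 2 (0.004). Without Ni-W replicate 1 it was -0.062 (-0.011), and without Ni-W replicate 2 it was 0.041 (-0.006).

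From exposure to washout edgeR called no gene at all without the block, 0% in either direction. By edgeR 808 of 14502 genes had an unadjusted p below 0.05, 17 of them among the 473 members. DESeq2 without the block called 0 of 498 members higher and 2 lower, beside 89 and 50 of 19464 genes. With the block 8 members were higher and 2 lower, beside 2.72% and 1.80% of all genes. The lower ones were ZNF750 and ZNF608, the latter at 3.18 and 2.56 TPM in UT, 6.33 and 4.77 in Ni-E and 2.94 and 1.58 in Ni-W cells. The higher ones were ZNF883, ZNF812, ZNF532, ZNF555, ZNF334, ZNF702P, ZNF175 and ZNF542P. ZNF883 had 9.70 and 10.4 TPM in UT, 2.49 and 3.21 in Ni-E and 6.14 and 7.99 in Ni-W cells, so its washout samples lay between the other groups. The counts again moved with single libraries. The median log2 fold change of members with the block was 0.092 without Ni-E replicate 2 (-0.001 over all genes) and 0.114 without Ni-W replicate 2 (0.0008). It was 0.035 without Ni-E replicate 1 (-0.002) and 0.042 without Ni-W replicate 1 (0.008). The 3 comparisons share samples.

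Of 18 co-repressor genes tested in RT4 cells none was called without the block and 1 in each comparison was called with it. Called in either direction with the block were 12.64% of all genes in Ni-E against UT cells. The shares were 8.571% in Ni-W against UT and 4.517% in Ni-W against Ni-E cells. TRIM28 had 453, 388, 516, 436, 507 and 413 TPM and SETDB1 had 25.1, 22.8, 19.4, 20.3, 22.6 and 20.8, in the order given above, and neither was called under either fit. With the block ATF7IP was lower in Ni-E cells (19.9 and 14.6 against 9.73 and 9 TPM) and higher again in Ni-W against Ni-E cells, and CBX5 was higher in Ni-W than in UT cells (20.6 and 14.1 against 11.2 and 9.34 TPM). Of the 18 characterised members 17 were tested, and ZNF395, ZNF423 and ZNF462 were higher in Ni-E cells with the block and 0 lower. Of the 13 members that bind retroelements, imprinted loci or ZNF genes 12 were tested. There ZNF382, ZNF43 and ZNF93 were lower and 0 higher. With the block 2.748% of all members tested were higher and 7.188% lower, beside 7.64% and 5.00% of all genes. These shares were not tested against each other.

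Marked promoters in BEAS-2B and expressed genes in RT4 largely coincided. Of 424 members with at least 1 RPKM in UT BEAS-2B cells 394 (92.92%) had at least 1 TPM in UT RT4 cells, with a median of 7.44 TPM, and of 103 below 1 RPKM 50 (48.54%) did, with a median of 0.84. Calls in the lines are set side by side. Since 0.4706% of members with a level were called at the promoter in Ni-E BEAS-2B cells, the 0 of 47 members called in Ni-E RT4 cells with the block that were called there says nothing of these members. Of the members lower at the promoter in Ni-W BEAS-2B cells 58 were tested in RT4 and 0 were called in Ni-W RT4 cells with the block, beside 4.863% of all members and 8.571% of all genes. ZNF486 was higher at the promoter in Ni-W BEAS-2B cells and lower as RNA in Ni-W RT4 cells. The lines, the times without nickel and the measurements differ, so these values are set side by side only.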

How the data were processed

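H3K4me3 ChIP-Seq was measured in 3 BEAS-2B libraries and RNA-Seq in 6 RT4 samples. For ChIP-Seq, the authors used BWA with hg38, collapsed redundant reads and deposited RPKM per promoter window, with a single value per condition although replicate experiments are described. Because deposited RPKM values are whole multiples of 1 read, reads and depth were recovered from them. The deposited RNA-Seq files are RSEM gene results with estimated counts, TPM and FPKM. The paper describes STAR alignment to hg19, the labels name GRCh38, and which one the estimated counts rest on is not given in the sources used here. The deposited TPM values serve as levels, and the deposited FPKM values were not used. BEAS-2B RNA-Seq, H3K27me3 and inputs were not analysed here.

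Estimated counts were rounded and tested with edgeR 4.0.16 (quasi-likelihood, TMM, filterByExpr, 1 model of 3 groups), with calls at 1.5-fold and a Benjamini-Hochberg adjusted p below 0.05 over all genes. Tests were tried on simulated data with 2-fold and 3-fold changes. In simulated Ni-E against UT counts (14259 genes) the fit without the block found 3 of 97 genes changed 2-fold and 32 of 98 changed 3-fold, and with the block (14286 genes) 86 of 99 and 88 of 97. Genes left unchanged were called as well, 10 without the block and 21 with it. Each fit was tried on counts drawn from its own model, so the 2 results do not show which fit suits these data. Replicate numbers came from the sample titles. The differences between replicates 2 and 1 correlated between groups at 0.62 to 0.73 over 14502 genes, so the numbers were taken as pairs. The paper describes the RNA replicates as biological, and the labels do not say how they were separated. The SE beside a log2 fold change is the size of that change divided by the square root of the edgeR F statistic. It is no spread over replicates. limma 3.58.1 and DESeq2 1.42.0 served as alternatives.

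Positions came from GENCODE version 44 and promoters from RefSeq. KRAB and C2H2 patterns were searched in translated coding sequences. Members, lists and rules were chosen with earlier results of these data known. Named are the 6 highest and lowest scores against UT (3 against Ni-E), the 5 highest levels, ZNF43, called RT4 members (8 and 8 where over 24), runs at both ends and listed members. The same rule was applied to the block fit, and ZNF484's sequence was added, after values were seen, and ZNF43 was named with its values known.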

Additional observations from a re-analysis of the deposited data

How the results depend on the processing

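H3K4me3 calls depend on the scaling and limits. For Ni-E against UT cells the members called higher and lower (1 and 1) became 0 and 10 without scaling, 0 and 2 with quantile normalisation, 0 and 6 with totals of promoter reads, 0 and 0 at 3 RPKM and 0 and 0 at 2-fold. For Ni-W against UT cells 15 and 59 became 9 and 305, 38 and 15, 35 and 14, 4 and 52, and 9 and 7 in the same order. For Ni-W against Ni-E cells 18 and 93 became 14 and 262, 31 and 15, 32 and 17, 4 and 84, and 12 and 12. Lower calls in Ni-E against UT cells were 2.353% of members without scaling, beside 1.529% of all promoters. They were 0.4706% beside 0.5813% with quantile normalisation and 1.412% beside 1.127% with totals of promoter reads. Counting 1 member per set of identical values changed no count by more than 1.5 times. The median score of members for Ni-E against UT, Ni-W against UT and Ni-W against Ni-E cells was -0.0390, -0.356 and -0.304 without scaling, 0, 0 and 0 with quantile normalisation, 0.0645, -0.169 and -0.222 at 1 RPKM or above in any library, and -0.000762, 0.0239 and 0.0154 after subtraction of the median of promoters of like level. The cause was not tested.

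In RT4 the replicate block raised the members called higher and lower from 2 and 3 to 13 and 34 in Ni-E against UT cells, from 0 and 0 to 11 and 12 in Ni-W against UT cells and from 0 and 0 to 8 and 2 in Ni-W against Ni-E cells. Without the block, DESeq2 called 5 and 11, 4 and 0, and 0 and 2, and limma on log2(TPM + 1) called 1 and 1 in the first. A minimum of 10 counts in every sample left 1 lower in the first, and no expression filter gave 1 higher in the second. RLE size factors, the fit of the 2 groups alone and the absence of a fold limit kept every count within 1.5 times. Leaving out 1 sample gave 0 to 3 higher and 0 to 2 lower in the first and 0 in both others. Added after seeing the data, the same settings with the block gave, for leaving out 1 sample, 11 to 27 higher and 16 to 36 lower, 5 to 31 and 3 to 21, and 6 to 33 and 4 to 12, and DESeq2 gave 21 lower in the first, 7 lower in the second and 5 higher in the third. Where 1 sample of a group was left, it was assumed to vary like the others. The numbers of all genes called moved between these fits as well, so the counts of members alone say nothing of the members. Of 59 alternative values of single genes 25 lost the call and 0 changed sign.

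Depth limits the low members. In H3K4me3 a count of 3 reads, taken as the floor, was 0.0264, 0.0200 and 0.0251 RPKM in the order UT, Ni-E, Ni-W. With 1 library a condition these values have no replicate check.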

Other observations

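Listed at 0 in the 3 H3K4me3 libraries were 8 members, ZNF85, ZNF100, ZNF251, ZNF280A, ZNF430, ZNF676, ZNF707 and ZNF729. The members next above them in UT cells were ZNF733P, ZNF705D, ZNF705B and ZNF705G with 1 to 10 reads, while the median member had 324 to 665 reads. Of the 8 at 0, 5 lie on chromosome 19, all in the run from ZNF85 to ZNF254. Among them ZNF85 had 8.91 and 8.88 TPM, ZNF430 6.75 and 5.81 and ZNF100 5.67 and 4.53 in UT RT4 cells, whereas ZNF676 and ZNF729 were at 0 TPM. Whether these values are levels or gaps in the deposited windows was not tested.

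In the stretch from ZNF85 to ZNF254, 4 genes that are not ZNF genes were tested in RT4, and 3 of them, IPO5P1, LINC00664 and LINC01224, were lower in Ni-E than in UT cells with the block, with a median log2 fold change of -1.23 over the 4. In the stretch from ZNF101 to ZNF626 the 1 such gene, LINC00663, was not called.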
